A study of Mus musculus with 4 samples.

Results

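The 7 long noncoding RNAs described here are Malat1, Neat1, H19, Kcnq1ot1, Meg3, Rian and Mirg, RNAs that stay in the nucleus or come from imprinted loci. They were chosen by name, and all 7 have a row among the 23282 features of the count table. Of these, 6 had at least 1 count and 4 (Malat1, Neat1, H19 and Kcnq1ot1) passed the filter on low counts. The series measured chromatin-bound nuclear RNA in myotubes of C2C12, a single mouse myoblast line labelled female and from skeletal muscle. All cells were deprived of steroids and received either vehicle (2 libraries) or 1 µM dexamethasone (2 libraries) for 2 h. Dexamethasone is a synthetic agonist of the glucocorticoid receptor. The labels do not say whether the libraries of a group came from separate cultures, so p-values measure only the spread between these libraries.

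Malat1 is an abundant RNA of nuclear speckles, and Neat1, its neighbour in the genome, is the scaffold of paraspeckles. H19 and Kcnq1ot1 belong to adjoining imprinted domains: H19 is expressed from the maternal copy next to the growth factor gene Igf2, and Kcnq1ot1 from the paternal copy, antisense to the potassium channel gene Kcnq1. Meg3, Rian and Mirg are maternally expressed RNAs of the Dlk1-Dio3 imprinted domain, which also holds many microRNAs and small nucleolar RNAs.

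Malat1 and the 20771-base transcript of Neat1 end in a triple helix in place of a poly(A) tail. These 3′ stretches are shown because they are the feature the pair shares. They were read from GENCODE M21 transcripts, bases 6602 to 6691 of the 6983 bases of Malat1-201 and bases 20677 to 20771 of the 20771 bases of Neat1-201. Capitals mark the U-rich runs and, at the end, the A-rich run that pair into the helix, written as DNA.
Malat1: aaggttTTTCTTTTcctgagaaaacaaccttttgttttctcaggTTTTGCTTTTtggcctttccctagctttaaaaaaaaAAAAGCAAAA
Neat1: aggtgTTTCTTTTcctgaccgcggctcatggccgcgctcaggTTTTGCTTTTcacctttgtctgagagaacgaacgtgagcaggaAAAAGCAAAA

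H19, Meg3, Rian and Mirg are hosts of microRNAs: 1 hairpin lies inside H19, 1 inside Meg3, 3 inside Rian and 14 inside Mirg, and none of them had a count in any library. One or more mature sequences per host are shown, from RefSeq (GRCm38.p6), with the seed (bases 2 to 8) in capitals. The 6 seeds all differ.
miR-675-5p (H19): uGGUGCGGaaagggcccacagu
miR-675-3p (H19): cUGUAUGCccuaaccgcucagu
miR-770-5p (Meg3): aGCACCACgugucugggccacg
miR-370-3p (Rian): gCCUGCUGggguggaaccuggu
miR-134-5p (Mirg): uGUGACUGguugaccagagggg
miR-410-3p (Mirg): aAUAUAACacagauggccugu

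Promoter windows of 300 bases (250 before to 50 after the start, RefSeq, GRCm38.p6) were searched on both strands for the glucocorticoid response element (AGAACA and TGTTCT with any 3 bases between), its half-site AGAACA (so the full element also counts as half-sites), the cyclic AMP response element TGACGTCA, the CCAAT box and TATAAA. The table held Malat1, Kcnq1ot1, Meg3, Rian and Mirg, and not Neat1 or H19. The full glucocorticoid element was in none of these members' windows and in 0.00913% of 32851 promoters. The half-site occurred once in the window of Rian and 2 times in that of Mirg, and in 6233 of all the promoters. Counts of Meg3 came almost wholly from 1 library, and Kcnq1ot1 varied least of the tested members when scaled by trimmed means. Their promoters are shown with motifs in capitals (for Meg3 the first of its start sites in the table). That of Meg3 (chr12:109540746-109541045, plus strand) holds TGACGTCA, present in 1.79% of promoters, 1 CCAAT, and TATAAA 2 times, on opposite strands and overlapping (in 13.6% of promoters at least 1 time). That of Kcnq1ot1 (chr7:143296498-143296797, minus strand) holds 3 CCAAT boxes, a number reached by 3.37% of promoters.
Meg3: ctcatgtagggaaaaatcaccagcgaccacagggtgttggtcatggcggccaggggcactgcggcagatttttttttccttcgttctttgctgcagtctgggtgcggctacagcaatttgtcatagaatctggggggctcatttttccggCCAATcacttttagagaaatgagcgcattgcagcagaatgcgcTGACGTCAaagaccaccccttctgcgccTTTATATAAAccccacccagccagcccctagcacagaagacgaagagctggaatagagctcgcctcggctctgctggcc
Kcnq1ot1: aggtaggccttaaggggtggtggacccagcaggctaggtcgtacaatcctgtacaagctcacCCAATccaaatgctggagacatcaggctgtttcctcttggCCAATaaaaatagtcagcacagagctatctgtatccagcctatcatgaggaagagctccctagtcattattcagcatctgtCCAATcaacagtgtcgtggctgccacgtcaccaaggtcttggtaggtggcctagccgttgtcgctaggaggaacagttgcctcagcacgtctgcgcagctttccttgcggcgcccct

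Total counts ran from 19631435 in vehicle replicate 1 to 88596296 in dexamethasone replicate 2. All 11 myotube markers were detected in every library, and 9 of them were higher in both libraries numbered 1 than in both numbered 2. Among all tested genes, 31.8% were placed so. The 11 markers summed to 125400 and 120600 CPM in vehicle and dexamethasone replicate 1 against 44260 and 43130 CPM in the libraries numbered 2. Without Ttn, the titin gene, the sums were 7303 and 7283 against 3206 and 3203 CPM. Malat1, Neat1 and the ratios described here also differed between the numbers, and the part of the myotube markers' difference in that was not tested. Vehicle replicate 1 stood apart: 102 of 23282 features (0.438%) had at least 20 counts there and over 10 times the CPM (counts scaled to a common library size) of each other library, and 0 features did so in any of the other 3. These 102 features held 0.0336% of that library's counts, and they include Meg3 and Rian. In bulk RNA, fewer cells with a transcript and less of it per cell cannot be told apart.

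Together the members took 3.07% and 2.80% of the counts in vehicle replicates 1 and 2, and 3.34% and 2.91% in dexamethasone replicates 1 and 2. Malat1 made up between 92.4% and 95.2% of that. It was the second most counted feature in every library. Its share was 2.93% (95% Wilson interval 2.92% to 2.94%) and 2.59% after vehicle and 3.18% and 2.71% after dexamethasone, replicate 1 first. Intervals on shares cover counting error only.

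Malat1 stood at 30827 and 23958 CPM after vehicle, scaled by trimmed means (TMM), and at 34394 and 25678 CPM after dexamethasone. Both libraries numbered 1 were above both numbered 2, as for 31.8% of tested genes, and the groups overlapped. The means were 27392 ± 4857 and 30036 ± 6163 CPM (SD, n = 2). The log2 fold change, dexamethasone against vehicle, was 0.13 (SE 0.256, 95% interval -0.54 to 0.81), and edgeR's quasi-likelihood test gave an adjusted p of 1.00. It was -0.03 without vehicle replicate 2 and -0.09 without dexamethasone replicate 1.

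Neat1, the paraspeckle scaffold, stood at 947 and 1447 CPM after vehicle and at 1061 and 1322 CPM after dexamethasone. Here both libraries numbered 2 were above both numbered 1, which held for 32.1% of tested genes. Group means were 1197 ± 353 and 1191 ± 185 CPM (SD, n = 2), with a log2 fold change of -0.01 (SE 0.262, 95% interval -0.70 to 0.69). The direction turned without vehicle replicate 2 (0.34) and without dexamethasone replicate 1 (0.15). The ratio of Neat1 to Malat1 counts was 0.0307 and 0.0308 in the libraries numbered 1, and 0.0604 and 0.0515 in vehicle and dexamethasone replicate 2.

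**Figure D1:**
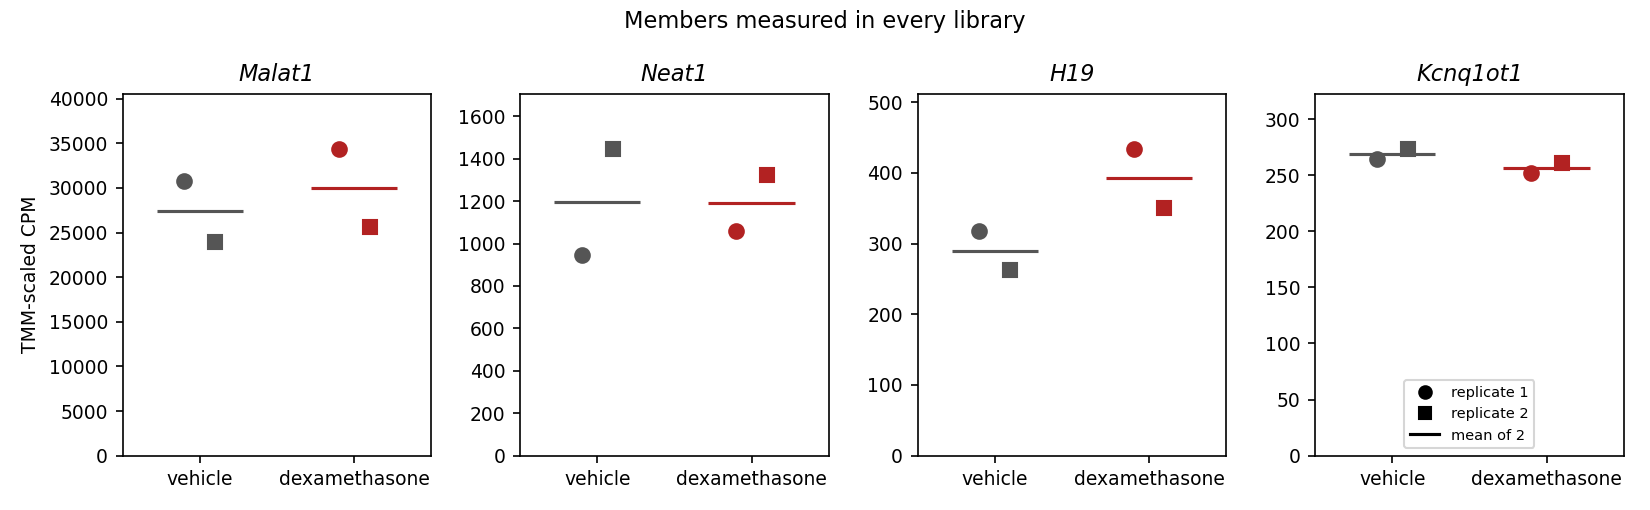
TMM-scaled CPM (linear axes from 0, 1 panel a gene) of the 4 members measured in every library, by group, with circles for replicate 1, squares for replicate 2 and a line for the mean of 2. H19 is the member whose dexamethasone points (434 and 350) lie above its vehicle points (318 and 262), and the Kcnq1ot1 points lie within 252 to 274.

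H19, the precursor of miR-675, had the largest log2 fold change of the 4 members tested. It stood at 318 and 262 CPM after vehicle and at 434 and 350 CPM after dexamethasone. Both dexamethasone libraries were above both vehicle libraries, also with scaling by library size alone (302 and 284 against 401 and 369 CPM), and 15.0% of tested genes were placed so. The means were 290 ± 39.4 and 392 ± 59.3 CPM (SD, n = 2). The log2 fold change of 0.43 (SE 0.182, 95% interval -0.05 to 0.92) did not pass edgeR's quasi-likelihood test (adjusted p = 0.937).

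Kcnq1ot1, which silences neighbouring genes on the paternal copy, varied least of the tested members with TMM scaling. It stood at 265 and 274 CPM after vehicle and at 252 and 261 CPM after dexamethasone, means of 269 ± 6.34 and 256 ± 6.30 (SD, n = 2). On this scale the dexamethasone libraries lay below those of vehicle, as for 12.9% of tested genes, but with scaling by library size alone the groups overlapped (251 and 296 against 232 and 275 CPM). The log2 fold change was -0.07 (SE 0.118, 95% interval -0.38 to 0.24; adjusted p = 1.00 by edgeR's quasi-likelihood test).

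Of the 4 members tested, 0 passed an adjusted p of 0.05, and 0 had an unadjusted p under that value, against 0.0376% of all 13285 genes called (5 genes, all higher). At an unadjusted p under 0.05, edgeR's quasi-likelihood test placed 543 genes higher and 225 lower. The members' median log2 fold change was 0.06, beside 0.00 for all genes tested (-0.0016). DESeq2 called 2.18% of genes and none of the 4 members. Leaving out vehicle replicate 1, 2 members were higher in both dexamethasone libraries than in the remaining vehicle library and 2 lower, beside 36.1% and 35.4% of tested genes. Per kilobase of exon (GENCODE M21 lengths) the level ordered Malat1, H19, Neat1, Kcnq1ot1 in every library. In vehicle replicate 1 these were 4414, 129, 45.6 and 2.84 CPM per kilobase. Whether the authors counted introns, and which gene models they used, is not stated, so the order holds only for these lengths.

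**Figure D2:**
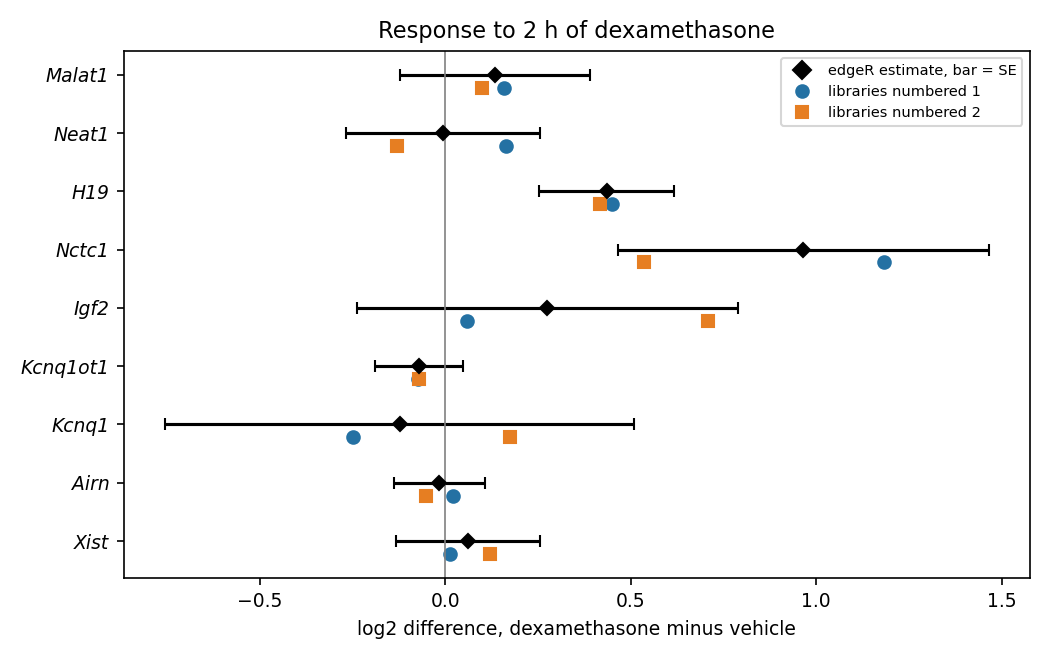
Log2 difference, dexamethasone minus vehicle, of the 4 tested members and of Nctc1, Igf2, Kcnq1, Airn and Xist: diamonds are edgeR estimates with bars of 1 SE, circles and squares the differences within the libraries numbered 1 and 2. H19 lies at 0.43 with both numbers close to it, and the Neat1 numbers lie on opposite sides of 0.

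Meg3, Rian and Mirg had at most 6 counts in any library other than vehicle replicate 1. Meg3 had 133 counts in vehicle replicate 1 and 1, 0 and 1 in the second vehicle library and the dexamethasone libraries. Rian, host of small nucleolar RNAs, had 31, 0, 4 and 6 in the same order. Mirg had 0 in every library. The high values are thus those of 1 library of 2 in its group. Against the other 3 libraries pooled, Meg3 was 529 times as frequent in vehicle replicate 1 (exact interval 144 to 4410), from only 2 counts in those libraries, and Rian 24.7 times (11.8 to 56.4). Those intervals compare libraries, not treatments, and no test between groups was made. Whether these counts came from the cells of vehicle replicate 1 or were carried over from another sample was not tested.

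Beside these, 20 neuron markers, listed after that library was seen to stand apart, summed to 101 CPM in vehicle replicate 1 and to 33.7, 19.5 and 36.0 CPM in the others. Of the 20, 13 were highest in vehicle replicate 1, and the share of all features highest there is not given here. Another 10-fold count gave 6 (Syt1, Snap25, Grin2b, Gad1, Rbfox3 and Elavl4) that exceeded 10 times each other library. These 6 are among the 102 features (0.438% of all) that set the library apart. As the list was written after that library was seen, these counts only describe it. Snap25, a synaptic vesicle fusion protein, had 160 counts there and 1, 1 and 4 elsewhere. The 4 list members at 0 in all libraries were Elavl3, Syn1, Syp and Slc32a1, 3 of them (Elavl3, Syn1 and Syp) inside long runs of neighbouring features at 0. Of 10 glia markers, also listed afterwards, 5 were highest in vehicle replicate 1. There were 2, both among the 102 features, that exceeded that fold, and Olig2 was at 0 in all libraries. The glia markers summed to 386, 411, 278 and 365 CPM, of which Slc1a3 alone gave 370, 404, 270 and 356 CPM. The other 9 summed to 16.3 CPM in vehicle replicate 1 and to 6.88, 7.87 and 8.78 CPM in the others. Their part in the Meg3 and Rian values was not tested.

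**Figure D3:**
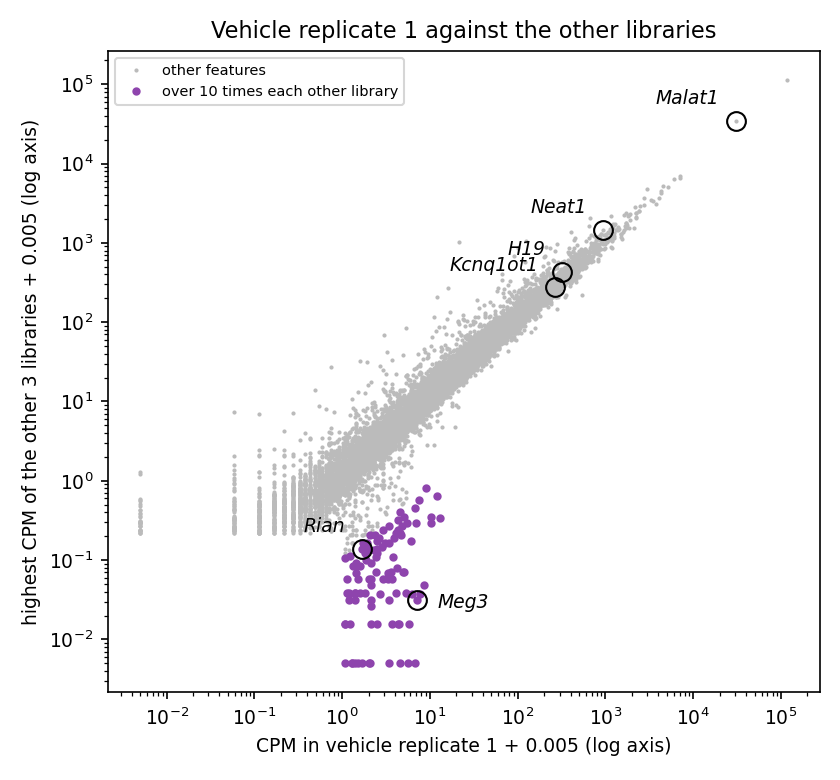
CPM in vehicle replicate 1 (x) against the highest CPM of the other 3 libraries (y), log axes with 0.005 added, for features with at least 20 counts in some library; members are circled and purple points are the 102 features over 10 times each other library. Meg3 and Rian lie among the purple points, and Malat1, Neat1, H19 and Kcnq1ot1 among the grey ones.

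The rest of the Dlk1-Dio3 domain had few counts. From Dlk1 to Dio3 there were 69 features, of which 5 had a count, and the 57 microRNA and 4 small nucleolar RNA features had none. Among all 609 microRNA features measured, 116 had a count. Dlk1, the ligand that opens the domain, had 0, 0, 0 and 1 counts, and Rtl1 and Dio3 had 0. The flanking gene Wdr25 had 1840, 4352, 3003 and 10010 counts and Ppp2r5c 3088, 7743, 4822 and 19026. Begain, between Wdr25 and Dlk1, had only 14, 37, 16 and 83. High counts thus resume on both sides, on the Dlk1 side at Wdr25 and not at Begain. Mirg and Dio3 each lie in a run of 47 consecutive features at 0 on their strand, and whether the table could measure them is not shown.

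**Figure D4:**
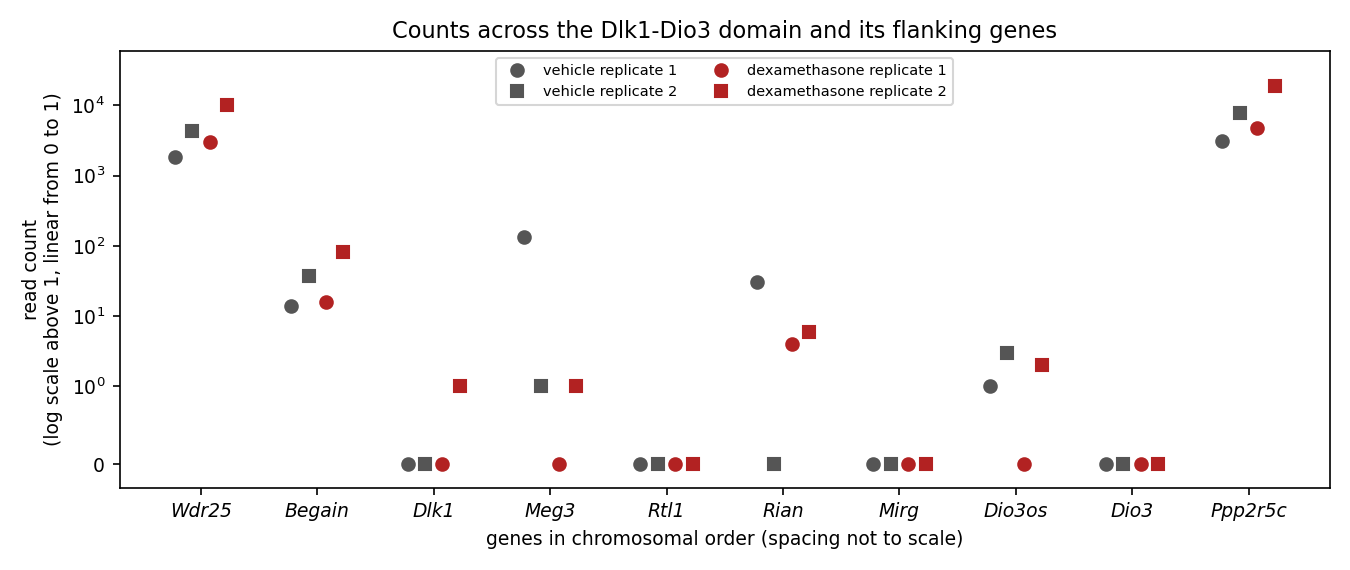
Read counts (log scale above 1, linear from 0 to 1) of named genes in order along the Dlk1-Dio3 region, 1 point a library, spacing not to scale. Wdr25 and Ppp2r5c have at least 1840 counts in every library, and from Dlk1 to Dio3 the highest points are Meg3 (133) and Rian (31) in vehicle replicate 1.

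In the H19 domain, the protein-coding neighbour Igf2 stood at 98.9 and 38.6 CPM after vehicle and 103 and 63.0 CPM after dexamethasone, overlapping between groups (log2 fold change 0.28, SE 0.514). The ratio of H19 to Igf2 counts was 3.21 and 6.80 after vehicle and 4.21 and 5.56 after dexamethasone. Nctc1, a noncoding RNA beside H19 that was chosen after its values were seen, had 41.0 and 26.0 against 93.0 and 37.6 CPM (log2 fold change 0.97, overlapping between groups), and its log2 fold change ran from 0.18 to 1.48 on leaving out 1 library. Kcnq1, which Kcnq1ot1 overlaps on the other strand, had 261 and 186 counts after vehicle and 353 and 516 after dexamethasone. Scaled for library size, Kcnq1 stood at 14.0 and 4.90 CPM after vehicle and 11.8 and 5.52 CPM after dexamethasone. The groups overlapped (log2 fold change -0.12, SE 0.633). The ratio of Kcnq1ot1 to Kcnq1 was 18.9 and 55.8 after vehicle and 21.4 and 47.2 after dexamethasone, in both groups higher in the library numbered 2. Since the strand setting of the counting is not stated, reads of this pair cannot be told apart.

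**Figure D5:**
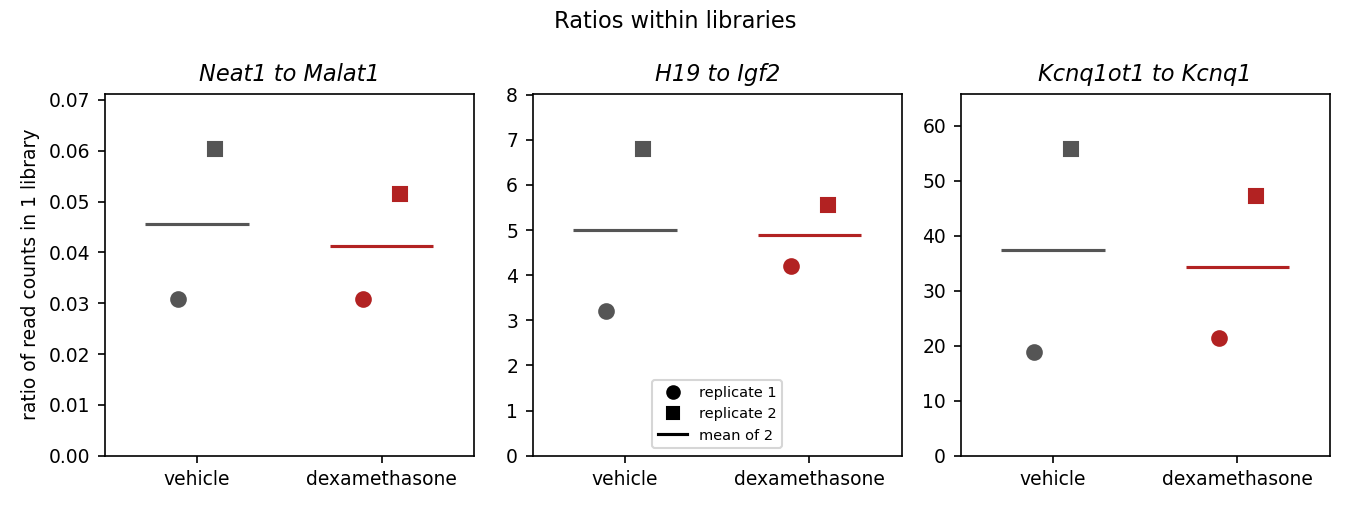
Ratios of read counts within each library (linear axes from 0): Neat1 to Malat1, H19 to Igf2 and Kcnq1ot1 to Kcnq1, with circles for replicate 1, squares for replicate 2 and a line for the mean of 2. Both squares lie above both circles in each panel, and the groups overlap.

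Of 19 genes listed for the Igf2-H19 and Kcnq1 domains, 14 were tested and 0 were called by edgeR's quasi-likelihood test. Of these, 5 had a positive and 9 a negative log2 fold change, median -0.06. One, the actin-binding leukocyte protein gene Lsp1, had an unadjusted p under 0.05 (log2 fold change 0.41, SE 0.145, adjusted p = 0.797). Tspan32, a tetraspanin gene, had -0.24 (SE 0.458), and 0.25 without vehicle replicate 1. Among 20 of 25 other nuclear or regulatory long noncoding RNAs with a row, 18 were tested and 0 were called. By edgeR's quasi-likelihood test, 0 of them had an unadjusted p under 0.05. Negative values were found for 14 (median of the list -0.14, beside -0.0016 for all genes tested). Tsix, the antisense partner of Xist, had the largest of these (-0.93, SE 0.377), with -0.47 without vehicle replicate 1. It was followed by Epb41l4aos (-0.45), Hotair (-0.33) and Mir100hg (-0.30). As the strand setting is not stated, reads of Tsix and Xist cannot be told apart where the genes overlap. Xist, which coats the inactive X, stood at 4238 and 3375 against 4272 and 3670 CPM. Airn, the imprinted RNA antisense to Igf2r, stood at 464 and 479 against 470 and 462 CPM. Of 22 paraspeckle and speckle protein genes, all were tested and 0 called, with 14 positive and 8 negative values. The largest were those of Nudt21, a 3′ end processing factor (0.33, SE 0.135), Pnn (0.27), Zc3h6 (0.20) and Hnrnpk (0.12), the last of which overlapped between groups and was -0.14 without vehicle replicate 2.

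By pattern over the 4 libraries (root mean square difference of centred log2 CPM, 10770 genes with a mean of at least 100 counts), the genes most like each member were Topors and Ankrd50 for Malat1, Hps4 and Usp36 for Neat1, Zfc3h1 and Nampt for H19, and Msn and Acyp2 for Kcnq1ot1. Within 0.1 of the member there were 981, 691, 142 and 2290 genes, so likeness over 4 libraries singles out few.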

How the data were processed

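Raw read counts per gene were deposited by the authors in one table. The submitters' processing notes list TopHat2 2.0.13, SAMtools 1.1, HTSeq 0.6.1, DESeq2 1.18.1 and mm9, without roles; annotation, strand setting and counted features are not given in the sources used here. Per the labels, a stranded total RNA kit and a stranded mRNA kit are both named. The table has 23333 rows; 51 repeats were used once. Total counts were 19631435, 35116830, 32463331 and 88596296 (vehicle 1 and 2, dexamethasone 1 and 2). After filterByExpr (minimum count 10, minimum total 15), 13285 genes entered the fit (R 4.3.3, edgeR 4.0.16, TMM, quasi-likelihood, group only, Benjamini-Hochberg, threshold 0.05); intervals use 4.556 degrees of freedom. Alternatives used other scalings, filters and thresholds, DESeq2 1.42.0, limma 3.58.1 (voom), edgeR's likelihood ratio test, a replicate block, thinning and leaving out each library. The members and lists were chosen with earlier results of these data known; the text names all members, Igf2, Kcnq1, Dlk1, Rtl1 and Xist, the 2 nearest patterns per member and, as no list member passed the threshold, up to 4 tested genes per list with the largest absolute log2 fold change and at least 20 counts in every library. Airn, Nctc1, Snap25, the flanking genes Begain and Ppp2r5c and marker genes were named after their values were seen. The use of all table entries as deposited, the neuron and glia lists and the list counts without vehicle replicate 1 were added after seeing the data. Of the fits, only the group-only edgeR fit was tested on simulated data. Those data had less spread than these libraries and no difference between replicate numbers. That test therefore does not show how the fits behave at the spread seen here.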

Additional observations from a re-analysis of the deposited data

How the results depend on the processing

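The number of genes called was 5. It was 289 with DESeq2 (236 higher, 53 lower), 288 with edgeR's likelihood ratio test, 23 with every gene of at least 1 count, 0 with limma-voom (unadjusted p under 0.05 in 540 higher and 231 lower genes) and 0 at a threshold of 0.01 (543 and 225). Leaving out each library gave 4 to 193 (193 without vehicle replicate 2, 24 without dexamethasone replicate 1, 28 without dexamethasone replicate 2, 4 without vehicle replicate 1), where a lone library is assumed to vary like the other group. With the replicate number as a block the count was 1681 (12.7%, with 913 higher and 768 lower), and 13 of 28 named genes were called. Many of the 28 were named for a large log2 fold change in these same libraries. Their share therefore cannot be set against that of all genes. Of the 4 tested members, only H19 was called with the block. Without the block, edgeR's quasi-likelihood test on all libraries together called none of these 13. They were, with adjusted p of the block fit in parentheses, H19 (log2 fold change 0.43, adjusted p = 0.00328), Ddc (0.000615), Mest (0.000747), Grb10 (0.00632), Tsix (0.0101), Nctc1 (0.0121), Dnmt3a (0.0131), Mir100hg (0.0154), Nudt21 (0.0315), Pnn (0.0374), Lsp1 (0.0403), Epb41l4aos (0.0438) and Jarid2 (0.0467). The differences between replicates 1 and 2 correlated between the groups across genes (r = 0.734), but with 2 pairs and no label saying what a number marks, the pairing is only a hint from the data. Neat1 turned to 0.005 with every gene of at least 1 count, to 0.0151 with limma-voom and to 0.0155 with the block. Leaving out each library gave -0.087 to 0.33 for Malat1, -0.28 to 0.34 for Neat1, 0.28 to 0.58 for H19, -0.10 to -0.04 for Kcnq1ot1, -0.25 to 1.11 for Igf2, -0.75 to 0.81 for Kcnq1, -0.087 to 0.24 for Xist -0.04 to 0.02 for Airn, -0.14 to 0.44 for Hnrnpk, -1.62 to 0.029 for Jarid2, -0.54 to 0.28 for Ehmt2, -0.75 to 0.25 for Tspan32, -0.14 to 0.079 for Wdr25, -1.28 to -0.47 for Tsix, -0.66 to -0.18 for Epb41l4aos, -0.52 to -0.06 for Mir100hg, -0.46 to -0.21 for Hotair, -0.30 to -0.03 for Trim28, -0.67 to -0.35 for Dcn and 0.10 to 0.32 for Zc3h6. The cause was not tested. In 44 further values of the 4 tested members under the other alternatives, direction and side of the threshold did not change. Without vehicle replicate 1, 2 members were higher in both dexamethasone libraries and 2 lower (36.1% and 35.4% of genes). Meg3 and Rian are descriptions because their counts come mainly from 1 library, the shallowest of the 4.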

Other observations

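Among 38 other imprinted genes, 37 had a row and 29 were tested, of which 0 were called by edgeR's quasi-likelihood test. The values were balanced, 15 positive and 14 negative, with a median log2 fold change of 0.01. Ddc, which encodes an aromatic amino acid decarboxylase, stood at 12.7 and 10.6 CPM after vehicle and 28.9 and 21.4 CPM after dexamethasone. Its log2 fold change was 1.11 (SE 0.223, edgeR adjusted p = 0.306), and it was called by DESeq2 (adjusted p = 0.00919) and by the likelihood ratio test (0.0118). Grb10, an adaptor of insulin signalling beside Ddc, overlapped between groups (log2 fold change 1.03, SE 0.628), with differences of 1.101 and 0.820 within the libraries numbered 1 and 2. Leaving out dexamethasone replicate 1 gave 0.18 and leaving out vehicle replicate 2 gave 0.56. The values were 1.57 and 1.67 when dexamethasone replicate 2 or vehicle replicate 1 was left out. Mest had a log2 fold change of -1.16 (SE 0.623), also overlapping, with differences of -1.16 and -1.15 within the numbers. Leaving out vehicle replicate 1 gave -0.39 and leaving out dexamethasone replicate 2 gave -0.65. The values were -1.67 and -1.91 when vehicle replicate 2 or dexamethasone replicate 1 was left out. Dcn, which encodes decorin, had a log2 fold change of -0.51 (SE 0.242).

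Of 16 imprint maintenance factors, 13 were tested and 0 were called by edgeR's quasi-likelihood test. Dnmt3a, a de novo DNA methyltransferase, stood at 54.6 and 60.3 CPM after vehicle and 41.5 and 48.0 CPM after dexamethasone (log2 fold change -0.36, SE 0.147, adjusted p = 0.926). Jarid2, a subunit of Polycomb repressive complex, stood at 544 CPM in vehicle replicate 1 and at 173, 217 and 136 CPM in the other libraries. Its log2 fold change was -1.02 (SE 0.597). On leaving out 1 library it ran from -1.62 to 0.03, the latter without vehicle replicate 1. Ehmt2 had -0.19 (SE 0.341), and 0.28 without vehicle replicate 2, and Trim28 had -0.17 (SE 0.164).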
